A study of Nothobranchius furzeri with 39 samples.

Results

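The growth factor and morphogen signalling genes described here are 105 of the 25099 genes in the 2-month table. They were chosen by gene name alone: ligands, receptors and signal carriers of the Wnt, bone morphogenetic protein (BMP), transforming growth factor beta (TGF-beta), fibroblast growth factor (FGF), Notch, insulin-like growth factor (IGF), vascular endothelial growth factor (VEGF), platelet-derived growth factor (PDGF) and epidermal growth factor families, with the Sprouty and Spred inhibitors; gdf6 was left out. Of these, 73 stood among the 16383 genes of each 3-month table. A choice by name also takes in genes outside these classes of ligands, receptors, signal carriers and inhibitors, and 13 such genes are included and pointed out where they occur. Another 66 genes carry a plain LOC identifier and match the same names only through a reference gene table; they are not counted as members.

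The fish are turquoise killifish, Nothobranchius furzeri, a short-lived vertebrate used in research on ageing. The 2-month experiment sampled liver and brain of fish labelled ATMcGAS double mutant, ATM mutant and WT; each genotype and tissue had 2 males and 2 females, apart from ATM mutant liver, where 1 male was analysed here beside 2 females. In a 3-month experiment, livers of 3 Blm1 mutant males were set against livers of 4 WT males. A separate 3-month experiment set brains of 5 cGAS mutants (2 males, 3 females) against brains of 2 WT fish (1 male, 1 female). The kinase ATM responds to DNA breaks, the helicase BLM resolves recombination intermediates and the enzyme cGAS senses DNA in the cytosol; the labels give neither the allele nor the zygosity of any mutation. All fish were kept in one facility on one diet, and each library is polyA RNA of a whole tissue. The p-values set a difference against the spread between fish within groups.

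Growth factors of these families are secreted proteins that bind receptors on the same cell, on neighbouring cells or, as with the IGFs made by the liver, on distant tissues. FGF, VEGF, PDGF, epidermal growth factor and IGF receptors are tyrosine kinases that act through Ras and the MAP kinase pathway, which Sprouty and Spred proteins dampen; BMP and TGF-beta receptors act through Smad proteins, Wnt ligands through Frizzled receptors, and Notch through genes such as those of the Hes family. In the adult liver these pathways are known for the growth hormone and IGF axis, bile acid control and zonation, and in the adult brain for the upkeep of glia, vessels and neural progenitors.

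In units of 1000000 counts (M), the libraries held 25 to 36.82 M in 2-month liver and 18.63 to 39.28 M in 2-month brain, and the 3-month tables, which hold part of the genes, held 19.5 to 24.09 M in liver and 11 to 17.28 M in brain. In the 2-month libraries, summed hepatocyte markers reached 106213 to 429173 counts per 1000000 (CPM) in liver and 923 to 1654 CPM in brain, and summed neuron markers 4.93 to 14.2 CPM in liver and 3289 to 3851 CPM in brain. In the 3-month libraries, hepatocyte markers summed to 121934 to 246158 CPM in liver and 489 to 5856 CPM in brain, and neuron markers to 9.65 to 15.5 CPM in liver and 2133 to 4266 CPM in brain. The atm transcript was at 10.96 to 15.4 CPM in ATMcGAS double mutant brains, 12.3 to 13.0 CPM in ATM mutant brains and 15.7 to 20.4 CPM in WT brains (2-sided exact permutation p = 0.0286 for each mutant group against WT), whereas the same test gave p = 0.114 and 0.171 in liver. The cgas transcript, listed as mb21d1, did not separate the double mutants: it stood at 2.29 CPM in the brain and 8.11 CPM in the liver labelled double mutant 4, while the other double mutants reached 0.104 to 0.236 CPM in brain and at most 0.0498 CPM in liver, and WT fish 0.120 to 0.289 CPM in brain and 0 to 13.2 CPM in liver. In the 3-month tables the exact test gave p = 0.171 for blm in Blm1 mutant livers, with overlapping ranges. In cGAS mutant brains mb21d1 was at 0.647 to 1.097 CPM, below the WT male at 1.27 and the WT female at 17.56 CPM. The exact test gave p = 0.0952, the smallest it can give for 5 against 2 fish, so it could not pass 0.05. These transcripts did not separate every mutant group from WT, so every genotype below is the labelled one.

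The largest differences among the growth factor genes were between the organs. Of the 100 genes with enough counts to test, 89 passed the threshold of an adjusted p under 0.05 (edgeR quasi-likelihood test, Benjamini-Hochberg adjustment over all genes), 41 of them higher and 48 lower in liver than in brain. Of all genes tested, 86.5% passed, 35.4% higher and 51.0% lower, so the number of growth factor genes called was near that of any genes. Their median log2 fold change was -0.13 against -0.41 over all genes, and 52 of the 100 lay above the median of all genes. The ranges of liver and brain did not overlap for 62 genes (62.0%, against 56.2% of all genes); 19 genes had a log2 fold change above 2 and 32 below -2. In whole tissues, fewer cells of a type and less RNA per cell cannot be told apart. Scaling by library totals in place of TMM factors shifted the median of all genes to -2.10 and gave 19 higher and 72 lower calls; the sign turned for 23 of the 100 genes, and the 17 of these that were called are named as such where they occur. The genes bmp15, fgf10, fgfbp2, gdf9 and hes3 had too few counts to test.

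**Figure D1:**
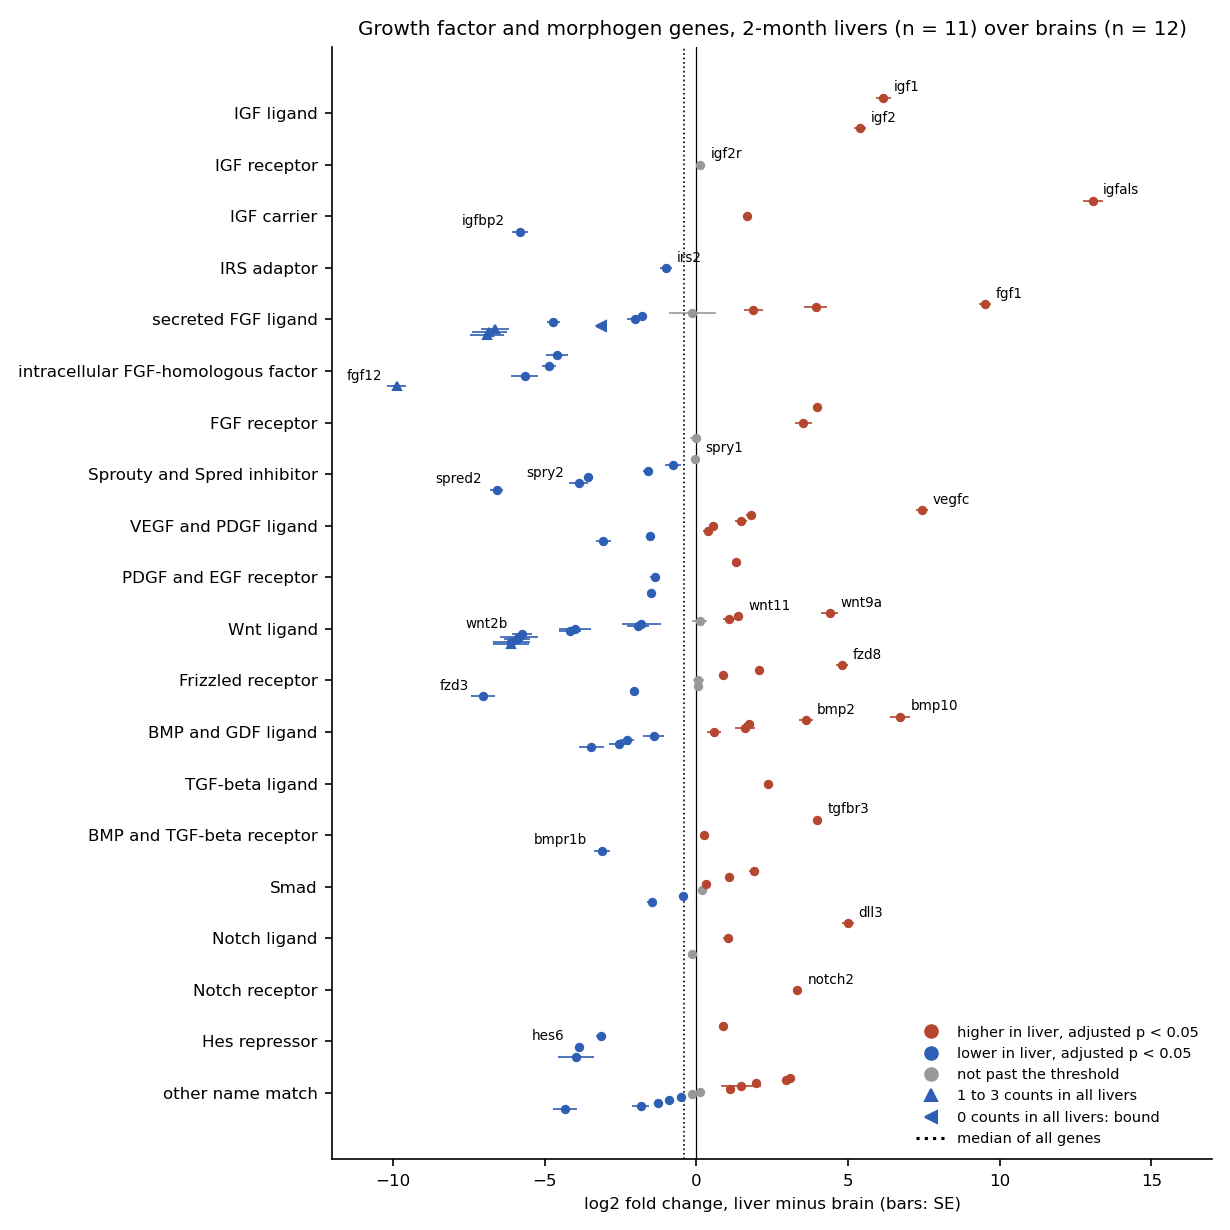
Log2 fold change of each growth factor gene between livers (n = 11) and brains (n = 12) of 2-month fish, with the standard error as bars, ordered by role. Both IGF ligands lie to the right, the 4 FGF-homologous factors and 9 Wnt ligands to the left. The dotted line marks the median of all genes at -0.41, triangles mark genes with 1 to 3 counts over all livers and the arrow marks the bound for fgf5, which had 0.

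Both IGF ligands were higher in liver. Liver igf1, the hormone made in response to growth hormone, ran from 105.9 to 546 CPM with a median of 260.0, and brain igf1 from 2.39 to 5.50 CPM with a median of 3.89 (log2 fold change 6.17, SE 0.24, adjusted p = 6.07e-15). For igf2, the second ligand, the lowest, median and highest values were 255, 729.7 and 1237 CPM in liver and 14.8, 16.7 and 20.5 CPM in brain (log2 fold change 5.40, SE 0.20, adjusted p = 1.77e-15). Every liver lay above every brain for both ligands. The carrier igfals, the acid-labile subunit that holds IGF in blood, stood at 168, 344 and 748 CPM in liver and at 0, 0.0325 and 0.104 CPM in brain, the highest log2 fold change of all members at 13.07 (SE 0.33).

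The other IGF carriers went apart. The binding protein gene igfbp2 was at 0, 0.348 and 1.16 CPM in liver against 14.6, 18.8 and 21.2 CPM in brain (log2 fold change -5.81). For igfbp4, which encodes another binding protein, liver values of 73.9, 184 and 235 CPM stood above brain values of 50.1, 53.7 and 63.4 CPM (log2 fold change 1.66), a direction that turned with library totals. The receptor igf2r, which clears IGF2 in mammals, was at a median of 50.8 CPM in liver and 48.6 CPM in brain and did not pass the test (log2 fold change 0.14, SE 0.10, adjusted p = 0.208). The adaptor irs2, which couples insulin and IGF receptors to PI3 kinase, was lower in liver, at 14.1, 43.4 and 110.0 CPM against 54.6, 83.3 and 116 CPM in brain (log2 fold change -0.995, SE 0.20, adjusted p = 0.000164), with ranges that overlapped.

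Of 11 secreted FGF ligands tested, 3 were higher and 7 lower in liver. The broad FGF receptor ligand fgf1 showed the widest separation, with 30.2, 75.0 and 122 CPM in liver and 0.0262, 0.0954 and 0.204 CPM in brain (log2 fold change 9.52, SE 0.21, adjusted p = 1.37e-18). The epithelial growth factor fgf7 was also higher (log2 fold change 3.94), as was fgf3 (1.88). On the other side stood fgf6, with 0.191, 0.539 and 0.846 CPM in liver against 9.35, 12.6 and 23.7 CPM in brain (log2 fold change -4.71), as well as fgf2 (-1.80) and fgf23 (-2.003), the phosphate hormone of mammals. The metabolic hormone gene fgf21, made by the liver in mammals, reached at most 0.308 CPM in liver and 0.239 CPM in brain and did not differ beyond its error (log2 fold change -0.13, SE 0.78).

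A few FGF genes had almost no liver counts, so that only a ratio with its counting interval can be given. The liver level of fgf8, a patterning ligand, was 1.29% of that in brain (95% exact interval 0.265 to 3.79%, 3 counts against 669). For fgf16 it was 0.864% (0.0218 to 4.85%, 1 count against 333) and for fgf22, a ligand known from synapses in mice, 0.872% (0.0220 to 4.89%, 1 against 330). With 0 counts in liver and 76 in brain, fgf5 was at least 8.80-fold lower in liver, taking 3 counts over the group as the floor.

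All 4 intracellular FGF-homologous factors, which are not secreted but bind voltage-gated sodium channels of neurons, were lower in liver. For fgf13 the values were 0.497, 1.09 and 2.86 CPM in liver and 39.4, 44.5 and 51.7 CPM in brain (log2 fold change -4.86). The level of fgf12 in liver was 0.0910% of that in brain (95% exact interval 0.00230 to 0.508%, 1 count against 3161), and fgf11 had a log2 fold change of -5.66. The fourth, fgf14, was lower by the test (log2 fold change -4.59), yet its liver values of 0, 0.636 and 24.0 CPM reached into the brain range of 18.1 to 25.8 CPM; the spread within liver went with sex, as described below.

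The FGF receptors did not follow their ligands to one side. The bile acid linked receptor fgfr4 was higher in liver, at 39.0, 113 and 227 CPM against 7.15, 9.83 and 13.0 CPM in brain (log2 fold change 3.52), and so was fgfrl1, a receptor without a kinase domain (log2 fold change 3.96). Median levels of fgfr2 were 126 CPM in liver and 114.5 CPM in brain, with no difference past the threshold (log2 fold change -0.02, SE 0.18, adjusted p = 0.919).

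Of the 6 Sprouty and Spred genes, 5 were lower in liver and 0 higher. The Sprouty gene spry2 was at 0.0572, 0.319 and 2.30 CPM in liver and 5.58, 8.15 and 10.7 CPM in brain (log2 fold change -3.88, SE 0.32, adjusted p = 8.82e-10). Every liver lay below every brain for spry2, and likewise for spred2, which had 0, 0.107 and 0.344 CPM in liver against 12.0, 13.6 and 16.4 CPM in brain (log2 fold change -6.58), and for spred3 (-3.56). The differences of spred1 (-1.60) and spry4 (-0.77, adjusted p = 0.0122) came with overlapping ranges. The sixth gene, spry1, was at a median of 19.7 CPM in liver and 20.8 CPM in brain (log2 fold change -0.05, SE 0.09, adjusted p = 0.603).

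Among 7 VEGF and PDGF ligands, 5 were higher and 2 lower in liver. The lymphatic growth factor vegfc had 25.6, 73.7 and 93.5 CPM in liver and 0.286, 0.391 and 0.595 CPM in brain (log2 fold change 7.44, SE 0.20, adjusted p = 1.42e-17), and the vessel growth factor vegfa had 29.9, 50.6 and 93.7 CPM in liver and 12.1, 14.3 and 16.6 CPM in brain (1.81). Neither range overlapped. The log2 fold changes of vegfb (1.49), pdgfb (0.54) and pdgfc (0.38) were positive but turned with library totals, while pdgfd (-3.06) and pdgfa (-1.51) were lower in liver. Of the receptors, pdgfrb, known from pericytes (-1.49), and egfr (-1.37) were lower in liver, and pdgfra was higher (1.31), a sign that turned with library totals.

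Wnt ligands were mostly lower in liver, 9 of 13 against 3 higher. For wnt9a, liver values of 1.42, 4.66 and 7.74 CPM stood above brain values of 0.105, 0.217 and 0.419 CPM (log2 fold change 4.40). The other higher ligands, wnt11 (1.38) and wnt10a (1.08), turned with library totals. The lower ones included wnt4 (-6.10), wnt1 (-5.92), wnt6 (-5.84), wnt2b (-5.74), wnt7a (-4.17) and wnt7b (-3.998), most of which are known from the patterning of the nervous system, as well as wnt5a (-1.92) and wnt16 (-1.81). For wnt3a the liver level was 2.75% of that in brain (95% exact interval 0.564 to 8.11%, 3 counts against 314), and wnt10b did not pass. Frizzled receptors split, with 3 of 7 higher and 2 lower: fzd8 had 77.5, 170.1 and 419 CPM in liver and 5.87, 7.05 and 8.03 CPM in brain (4.80), fzd9 followed with 2.07 and fzd6 with 0.89, the last turning with library totals, whereas fzd3 (-7.03) and fzd10 (-2.04) were lower in liver. Differences of fzd2 and fzd4 did not pass.

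BMP and GDF ligands divided 5 higher to 4 lower of 9 tested. The ligand bmp10, known from the heart and from hepatic stellate cells of mice, had 2.60, 7.03 and 9.96 CPM in liver and 0, 0.0491 and 0.143 CPM in brain (log2 fold change 6.71). The others higher in liver were bmp2 (3.62), bmp4 (1.72), gdf5 (1.61) and bmp7 (0.60), of which gdf5 and bmp7 turned with library totals, and bmp8a (-3.47), bmp5 (-2.53), bmp3 (-2.28) and gdf3 (-1.41) were lower. The ligand tgfb3 stood at 23.6, 38.1 and 58.5 CPM in liver and 6.30, 7.25 and 9.27 CPM in brain (2.35). Its co-receptor tgfbr3 was higher as well (3.97), bmpr2 slightly so before library totals turned it (0.24), and the BMP receptor bmpr1b was lower (-3.11).

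Of 6 Smads, which carry these signals into the nucleus or block them, 3 were higher and 2 lower in liver. The inhibitory smad6 had a log2 fold change of 1.89, smad2 of 1.07 and smad3 of 0.31, the last pair turning with library totals; smad9 (-1.47) and smad1 (-0.45), which carry BMP signals, were lower, and the inhibitory smad7 did not pass. In the Notch family, the receptor notch2 had 47.6, 72.4 and 86.4 CPM in liver and 5.19, 7.10 and 11.4 CPM in brain (3.34), and the ligand dll3, which blocks Notch within the cell in mammals, had 7.30, 13.0 and 18.2 CPM in liver and 0.225, 0.384 and 0.707 CPM in brain (5.01). Of the other ligands, jag1 was higher (1.05) until scaled by library totals, and dll4 did not pass (-0.16, adjusted p = 0.156). The Hes genes, a family that includes targets of Notch, went the other way in 3 of 4 cases. Lower in liver were hes2 (-3.96), hes6 (-3.85) and hes1 (-3.14), and hes4 was higher (0.87), a sign that turned with library totals.

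Among the 12 tested genes outside the ligand, receptor, signal carrier and inhibitor classes, 5 were higher and 5 lower. The protease gene bmp1, which processes procollagen and is no BMP ligand, was higher in liver (3.08), as were fgfr1op2 (2.97) and the RNA-binding protein gene igf2bp2 (1.97), and with signs that turned by library totals igflr1 (1.48) and the matrix protein gene tgfbi (1.13). The genes fgfbp1 (-4.33), pdgfrl (-1.83), spryd7 (-1.26), tgfbrap1 (-0.91) and fgfr1op (-0.52) were lower.

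Pathway genes outside the name rule were read from fixed lists of intracellular transducers, co-receptors and modulators. In liver against brain 184 of 203 were called, 67 higher and 117 lower. Of all genes 86.5% were called, 35.4% higher and 51.0% lower. By list, the higher and lower calls were 7 and 27 for Wnt, 10 and 29 for TGF-beta and BMP, 8 and 18 for FGF and Ras-MAPK, 11 and 15 for Notch, 12 and 14 for VEGF, PDGF and EGF, and 19 and 14 for insulin. The co-receptor kl (klotho) was higher in liver by 7.95 and the latent TGF-beta binding protein gene ltbp3 by 4.32 on the log2 scale, and the Notch modulator dtx4a had a log2 fold change of -5.84.

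Between the sexes, growth factor genes were called in liver. Of 72 growth factor genes tested between 5 male and 6 female livers of the 3 genotypes, 7 passed, 6 higher and 1 lower in males (edgeR, genotype as covariate). Over all genes 2.84% passed, 1.28% higher and 1.56% lower. At an unadjusted p under 0.05 the shares were 29.2% of these genes and 21.6% of all genes, and the ranges of the sexes did not overlap for 7 of these genes (9.72%, against 3.42% of all genes). DESeq2 called 13 (18.1%, against 10.8% of all genes), and edgeR called 10 without double mutant liver 4. The mb21d1 level of that liver was above those of the other double mutant livers.

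The signal carrier smad2, which relays TGF-beta and activin, was at 115 and 149.5 CPM in the male double mutants, 101 CPM in the male ATM mutant and 77.0 and 76.5 CPM in the WT males, against 24.9 to 58.1 CPM with a median of 42.9 in the 6 females. Every male lay above every female (log2 fold change 1.37, SE 0.16, adjusted p = 0.00324). It passed with any single liver left out.

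The sodium channel partner fgf14 was at 24.0 and 3.60 CPM in the male double mutants, 10.5 CPM in the male ATM mutant and 1.94 and 2.30 CPM in the WT males. The females had 0 to 0.636 CPM with a median of 0.0772, from 16 counts in all. Males were again all higher, with a wide spread among themselves (log2 fold change 5.90, SE 0.87, adjusted p = 0.00965, passing with any single liver left out). Males alone were sampled in the 3-month livers, and there fgf14 ranged from 0.480 to 2.29 CPM in Blm1 mutants and from 0.0488 to 30.7 CPM in WT fish, so low values in that experiment also occurred in males.

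Of the other genes higher in males, bmp1 was at 200.5 and 216 CPM in double mutants, 242 CPM in the ATM mutant and 178 and 221 CPM in WT males, against 65.3 to 164 CPM in females (log2 fold change 1.05, SE 0.17, adjusted p = 0.0153). The receptor pdgfra, found on mesenchymal cells such as hepatic stellate cells, had 30.6 to 46.8 CPM in males and 16.6 to 24.1 CPM in females (0.81, SE 0.15, adjusted p = 0.0212). For tgfbi the ranges were 42.6 to 82.8 CPM in males and 22.1 to 42.0 CPM in females (0.91, SE 0.20, adjusted p = 0.041). None of these 3 overlapped, whereas the repressor hes4, at 11.1 to 22.6 CPM in males and 6.84 to 11.9 CPM in females, did (0.79, SE 0.14, adjusted p = 0.0202).

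The ligand bmp7 was the gene lower in males. It was at 0.796 and 0.153 CPM in male double mutants, 1.37 CPM in the male ATM mutant and 0.971 and 1.60 CPM in WT males, against 2.64 to 7.09 CPM with a median of 4.49 in females (log2 fold change -2.35, SE 0.46, adjusted p = 0.0279). The receptor fgfrl1 had the same kind of separation, 25.6 to 63.8 CPM in males and 65.6 to 81.3 CPM in females, but missed the threshold (-0.74, adjusted p = 0.0659).

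**Figure D2:**
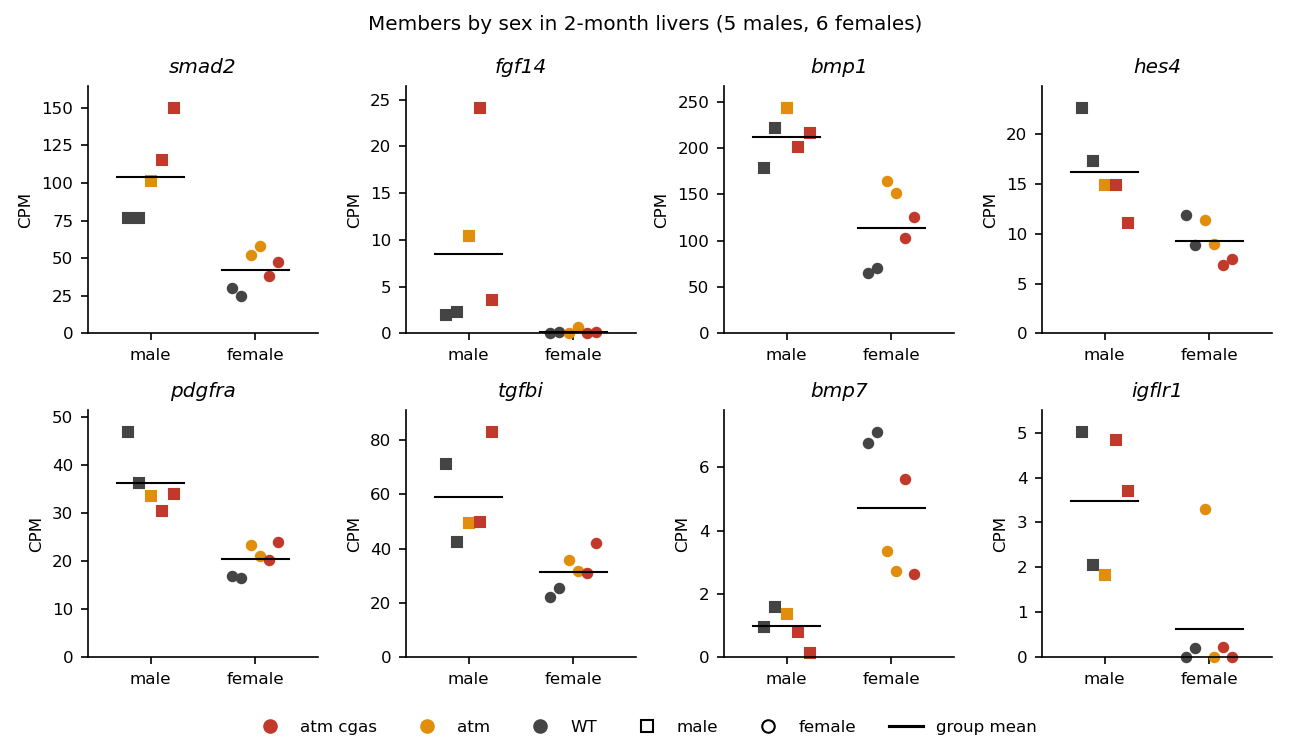
CPM of 8 growth factor genes in each 2-month liver, 5 males (squares) and 6 females (circles), coloured by genotype, with the mean as a line. Males lie wholly above females for smad2, fgf14, bmp1, pdgfra and tgfbi and wholly below for bmp7, and in igflr1 1 ATM mutant female stands with the males.

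Of the 11 livers left out in turn, 3 ended the call of bmp1, 4 that of hes4, 4 that of pdgfra, 6 that of bmp7 and 9 that of tgfbi; the count was 2 without WT female 3, without WT female 4 or without double mutant female 2, and 4 without ATM mutant female 2. In mutant fish alone 0 genes passed in edgeR, with log2 fold changes of 1.34 for smad2, 6.03 for fgf14 and -2.26 for bmp7. Summed hepatocyte markers were 180651 to 429173 CPM in males and 106213 to 301426 CPM in females, lowest in the 2 WT females at 112535 and 106213 CPM. The 10 fibroblast and stellate cell markers, pdgfra among them, summed to 175 to 774 CPM in males and 109.8 to 433 CPM in females, with overlap. The 6 gonad markers summed to 2.43 to 11.1 CPM with a median of 6.39 in males and 2.26 to 2.60 CPM with a median of 2.46 in females, and the 1 exocrine pancreas marker was at 12.7 to 137 CPM with a median of 21.0 in males and 40.9 to 455 CPM with a median of 70.2 in females. The part of any of these in the differences was not tested. Of 155 pathway genes tested, only thbs1, whose product activates latent TGF-beta, passed (log2 fold change 1.95, SE 0.33, adjusted p = 0.0177), against 2.84% of all genes.

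The gene igflr1, whose product is a receptor of the TNF receptor kind and no IGF receptor, followed sex in all fish but 1. In liver it was at 4.83 and 3.71 CPM in male double mutants, 1.83 CPM in the male ATM mutant and 5.001 and 2.05 CPM in WT males. The females had 0.243 and 0 CPM as double mutants, 3.30 and 0 CPM as ATM mutants and 0 and 0.212 CPM as WT. In brain the males ranged from 0.784 to 1.94 CPM, and the females had 0.0375 and 0.0415 CPM as double mutants, 1.36 and 0.143 CPM as ATM mutants and 0.0602 and 0.138 CPM as WT. The high female was ATM mutant 1 in both organs, whose liver smad2 (52.4 CPM) and bmp7 (3.35 CPM) lay within the female ranges. With that fish the log2 fold change missed the threshold in liver (3.64, SE 1.29, adjusted p = 0.152) and in brain (2.53, SE 0.79, adjusted p = 0.556); without it both were past the threshold in edgeR, at 5.18 (SE 0.72, adjusted p = 0.0144) in liver and 3.79 (SE 0.42, adjusted p = 0.00443) in brain. That fish was picked for leaving out after its igflr1 values were seen, and in liver the gene was too, so these p-values describe the other fish and are no independent test.

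In brain, 0 of 91 growth factor genes passed between the sexes in edgeR, against 0.00503% of all genes; 6 (6.59%) reached an unadjusted p under 0.05, against 8.9% of all genes, and DESeq2 called 2, spred1 and igflr1 (2.2%, against 0.206% of all genes). The gene spred1 was at 51.2 to 66.0 CPM in males with a median of 54.9 and at 33.5 to 59.3 CPM in females with a median of 39.7 (log2 fold change 0.44, SE 0.10, adjusted p = 0.556). The ranges overlapped, as they did for all 91 genes; 0.201% of all genes were without overlap. For spry2 males had a median of 7.005 CPM and females of 8.70 CPM (-0.23). The differences with the next smallest p were those of jag1 (0.25), fzd4 (0.21) and spry4 (-0.15).

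By genotype, 0 of 74 growth factor genes passed in liver in any of the 3 comparisons (edgeR, sex as covariate), so the values below are differences that missed the threshold. Double mutants against WT gave 16 genes at an unadjusted p under 0.05, 21.6% of those tested against 19.5% of all genes; 0.662% of all genes passed the adjusted threshold, 0.445% higher and 0.216% lower. Double mutants against ATM mutants gave 10 (13.5% against 11.5%), and 0.0433% of all genes passed, 0.0124% higher and 0.0309% lower. ATM mutants against WT gave 8 (10.8% against 10%), and 0.0% of all genes passed. In the same order, DESeq2 called 7, 1 and 3 genes, which is 9.46%, 1.35% and 4.05% of them against 7.77%, 2.32% and 0.73% of all genes. Ranges did not overlap for 4, 10 and 6 of the 74 genes, which is 5.41%, 13.5% and 8.11% against 6.53%, 13.1% and 7.72% of all genes.

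The Frizzled receptor fzd9 came nearest to the threshold in the double mutants. It was at 21.2, 14.8, 13.6 and 14.3 CPM in double mutants, 45.3, 58.1 and 32.5 CPM in ATM mutants and 26.0, 42.1, 29.6 and 34.2 CPM in WT fish. All double mutants lay below all others (log2 fold change against WT -1.09, SE 0.24, adjusted p = 0.068; against ATM mutants -1.50, SE 0.26, adjusted p = 0.0776), and DESeq2 put it past the threshold against WT (adjusted p = 0.00276). The differences of smad2 (0.68, adjusted p = 0.0948) and hes4 (-0.62, adjusted p = 0.0951) against WT came next with dll4 and missed it too.

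The Notch ligand dll4, active in vessel growth, had 6.32, 3.98, 3.12 and 4.13 CPM in double mutants, 6.44, 5.84 and 8.17 CPM in ATM mutants and 7.77, 9.91, 5.65 and 6.67 CPM in WT fish (against WT -0.82, SE 0.19, adjusted p = 0.0786; against ATM mutants -0.73, adjusted p = 0.232). Double mutant 1 overlapped with the other groups. The TGF-beta signal carrier smad3 had 23.5, 20.2, 15.1 and 16.8 CPM in double mutants, 28.2, 26.3 and 23.0 CPM in ATM mutants and 24.3, 25.4, 28.5 and 28.8 CPM in WT fish. Double mutants were below WT without overlap (-0.54, adjusted p = 0.116). In the other direction, fgf7 had 1.69, 1.12, 1.78 and 2.75 CPM in double mutants, 0.586, 0.693 and 0.857 CPM in ATM mutants and 0.971, 1.28, 0.308 and 0.423 CPM in WT fish (1.33, adjusted p = 0.105), overlapping with WT alone. Against ATM mutants, tgfbrap1, whose product binds TGF-beta receptors, had a log2 fold change of 0.68 (adjusted p = 0.267).

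The adaptor irs2 was at 14.2, 14.1, 14.9 and 57.1 CPM in double mutants, 25.5, 52.1 and 64.9 CPM in ATM mutants and 43.4, 110.0, 42.3 and 47.6 CPM in WT fish. In double mutants, 3 livers were below all others and the fourth, labelled double mutant 4, was within the WT range (against WT -1.40, adjusted p = 0.147).

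Between ATM mutants and WT fish, the 6 genes without overlap were fgf1, fzd8, igf2, hes1, hes6 and vegfc. The ligand fgf1 was at 109, 122 and 93.2 CPM in ATM mutants and 30.2, 65.7, 49.2 and 34.8 CPM in WT fish (log2 fold change 1.20, SE 0.26, adjusted p = 0.421). The receptor fzd8 was at 301, 289 and 419 CPM in ATM mutants and 170.1, 146.5, 78.7 and 77.5 CPM in WT fish (1.60, SE 0.42, adjusted p = 0.421), and igf2 at 1237, 1021 and 1020 CPM in ATM mutants and 388, 507, 729.7 and 562 CPM in WT fish (0.93, adjusted p = 0.490). In these 3 genes every ATM mutant was above every WT fish. For fgf1 the double mutants, at 71.4, 81.8, 84.9 and 75.0 CPM, also lay above every WT fish and below every ATM mutant. For fzd8 and igf2 the double mutants overlapped with WT. DESeq2 called fgf1, fzd8 and smad2 (0.76). The other differences with the smallest p were those of bmp1 (0.77), spred1 (-0.99) and hes1 (0.96). The WT livers are shared by both comparisons against WT.

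**Figure D3:**
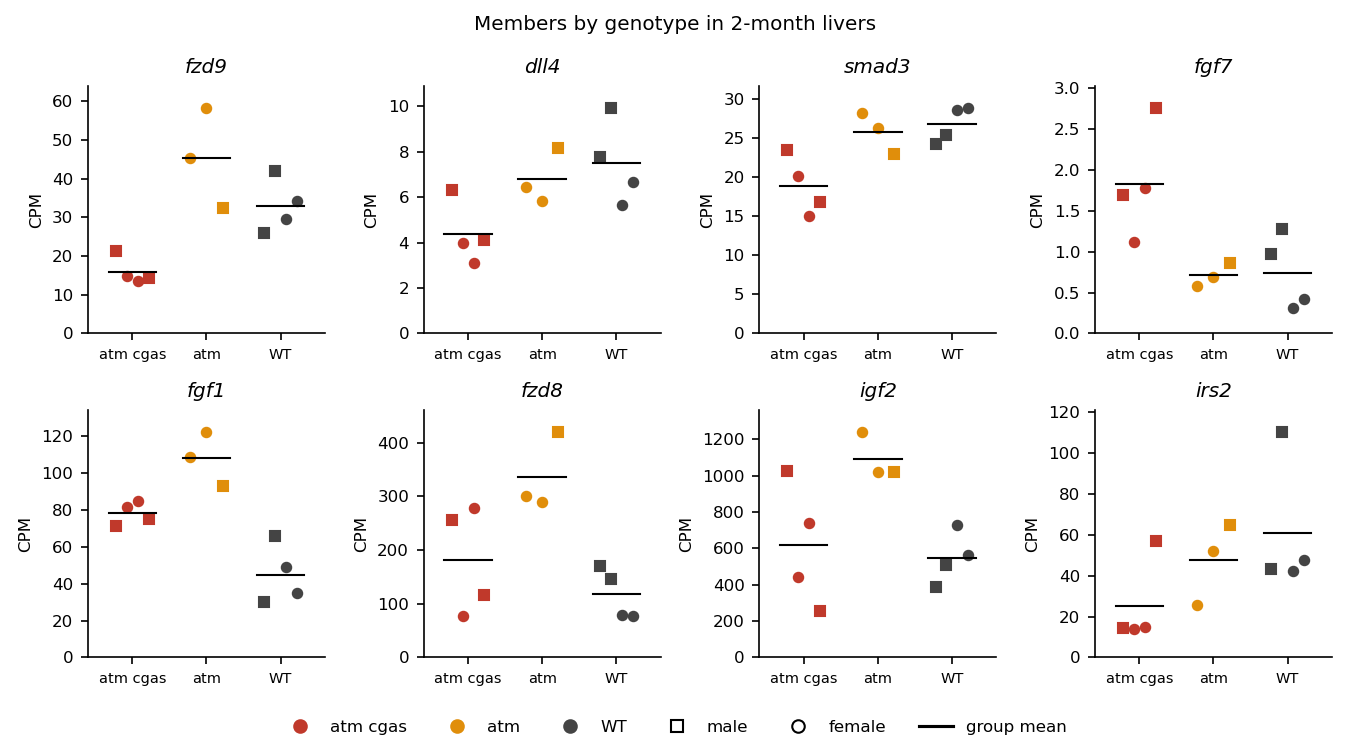
CPM of 8 growth factor genes in each 2-month liver of double mutants (n = 4), ATM mutants (n = 3) and WT fish (n = 4). The double mutants are lowest for fzd9, and the ATM mutants lie above WT for fgf1, fzd8 and igf2. The double mutants also lie above WT for fgf1. None of these differences passed the threshold in edgeR.

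The count of called genes against WT became 2 without the liver of WT fish 1, 3 without that of double mutant 1 and 4 without that of double mutant 4, and against ATM mutants 2 without double mutant 4. Among pathway genes 0 passed, the nearest being the kinase gene braf (double mutants against WT -0.69, adjusted p = 0.055) and the MAP kinase phosphatase gene dusp5 (2.51, adjusted p = 0.0733).

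Within liver sexes, 1 of 74 genes passed between 2 female double mutants and 2 female WT fish, against 6.08% of all genes, 2.52% higher and 3.56% lower. It was fgfr1op, a centrosome protein gene named for a fusion with an FGF receptor, with 21.3 and 15.9 CPM in double mutants and 37.5 and 30.3 CPM in WT fish (log2 fold change -0.92, SE 0.20, adjusted p = 0.0413). The call was lost with any 1 of these livers left out (adjusted p 0.0946 to 0.254). The next in females were fzd9 (-1.22, adjusted p = 0.056), egfr (1.27, adjusted p = 0.0676), smad3 (-0.76), fgf7 (1.91) and bmp1 (0.70). Of 163 pathway genes tested in females, 8 passed, 4 higher and 4 lower, with the smallest p for the Wnt effector tcf7l2 (-1.30, SE 0.20, adjusted p = 0.0159), the kinase gene gsk3b (1.29, SE 0.22, adjusted p = 0.0198) and the receptor gene erbb3 (1.39, SE 0.25, adjusted p = 0.0247). In males 0 of 74 passed in edgeR against 0.0124% of all genes, and 15 had an unadjusted p under 0.05 (20.3%, against 12.8% of all genes). DESeq2 called notch2, at 59.2 and 47.6 CPM in double mutants and 86.4 and 83.8 CPM in WT males (-0.70, edgeR adjusted p = 0.282). The next in males were smad2 (0.77), spry2 (3.57), spry1 (0.62), fzd9 (-0.98) and spred1 (-1.48). Without double mutant 1 the log2 fold changes in males were -0.85 for notch2 and 0.96 for smad2. Then 1 male double mutant remained, the liver labelled double mutant 4, which was taken to vary like the other groups. Its mb21d1 level was above those of the other double mutant livers.

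The difference between the sexes in the double mutant effect was tested directly and passed for 0 of 74 genes in liver in edgeR, with 13 at an unadjusted p of less than 0.05 (17.6%, against 16% of all genes), while DESeq2 called tgfb3; 0.42% of all genes passed, 0.0927% with the effect higher and 0.328% lower in females. It was nearest for tgfb3, with females minus males at 1.15 (adjusted p = 0.105). Next by p were pdgfrl (3.78, at most 18 counts in a liver), egfr (1.63), fgf13 (2.62), pdgfra (0.73) and notch2 (0.72). For tgfb3 the difference was 0.96 without the liver of double mutant 1 and 1.36 without that of double mutant 4. Each of these leaves 1 male double mutant, taken to vary like the other groups. The same test of the ATM mutant effect gave 0 of 74 in liver, with 10 reaching an unadjusted p under 0.05 (13.5%, against 7.23% of all genes); its male ATM mutant arm is 1 liver, number 4, taken to vary like the other groups. In brain it gave 0 of 93 for each mutant group, with 13 (ATM, 14.0% against 13.1% of all genes) and 8 (double mutants, 8.6% against 7.02%) at that level and 0.0% of all genes passing. DESeq2 also called 0 in these 3.

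In brain, genotype gave 0 calls among 93 growth factor genes in each of the 3 comparisons, by edgeR and by DESeq2. At an unadjusted p under 0.05 there were 4 for double mutants against WT, 9 for double mutants against ATM mutants and 6 for ATM mutants against WT, which is 4.3%, 9.68% and 6.45% of the genes against 5.4%, 5.31% and 8.79% of all genes; 0.00493%, 0.0% and 0.00987% of all genes passed the adjusted threshold.

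The smallest p among them belonged to spry2. It was at 8.54, 9.41, 10.7 and 9.67 CPM in double mutant brains, 7.51, 8.41, 6.88 and 5.58 CPM in ATM mutant brains and 6.69, 7.13, 7.89 and 8.996 CPM in WT brains. Double mutants lay above ATM mutants without overlap (log2 fold change 0.42, SE 0.10, adjusted p = 0.819) but overlapped with WT (0.31, SE 0.10, adjusted p = 0.891). The ligand igf2 was at 19.1, 18.8, 17.8 and 20.5 CPM in ATM mutant brains and 17.3, 16.1, 14.8 and 15.2 CPM in WT brains, with no overlap (0.28, SE 0.08, adjusted p = 0.54).

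Other brain differences with the smallest p were below 1 on the log2 scale. For double mutants against WT they were hes1 (-0.33), pdgfa (0.18), irs2 (0.36), bmp7 (0.42) and fgf6 (0.38). For double mutants against ATM mutants they were igf2 (-0.28), fgfrl1 (-0.58), igf1 (-0.57), fgfr2 (0.18) and spred1 (-0.30). For ATM mutants against WT they were spred1 (0.41), hes1 (-0.31), fgfr1op (-0.31), wnt10a (-0.79) and fgfr2 (-0.17).

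Across the 3 experiments, the Sprouty genes can be set side by side. In 2-month liver spry2 was at 1.69, 0.970, 1.35 and 2.30 CPM in double mutants, 0.319, 0.231 and 0.0572 CPM in ATM mutants and 0.243, 0.0639, 0.205 and 1.91 CPM in WT fish. Double mutants were above ATM mutants without overlap (3.31, SE 1.02, adjusted p = 0.265), and against WT the liver of WT fish 4 fell within the double mutant range (1.77, adjusted p = 0.289). In 3-month liver spry2 had too few counts to test, at 0.239, 0.285 and 0.0873 CPM in Blm1 mutants and 0.201, 1.39, 0 and 2.05 CPM in WT fish. In 3-month brain it was at 9.36, 13.9, 10.6, 7.85 and 7.79 CPM in cGAS mutants and 13.7 and 10.5 CPM in WT fish (-0.35, adjusted p = 0.947). Among WT livers alone spry2 ranged from 0.0639 to 1.91 CPM at 2 months and from 0 to 2.05 CPM at 3 months. For spry1 in 2-month liver the values were 30.8, 21.5, 20.4 and 23.4 CPM in double mutants against 16.0, 18.4, 15.5 and 15.6 CPM in WT fish, all higher but short of the threshold (0.51, adjusted p = 0.151).

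**Figure D4:**
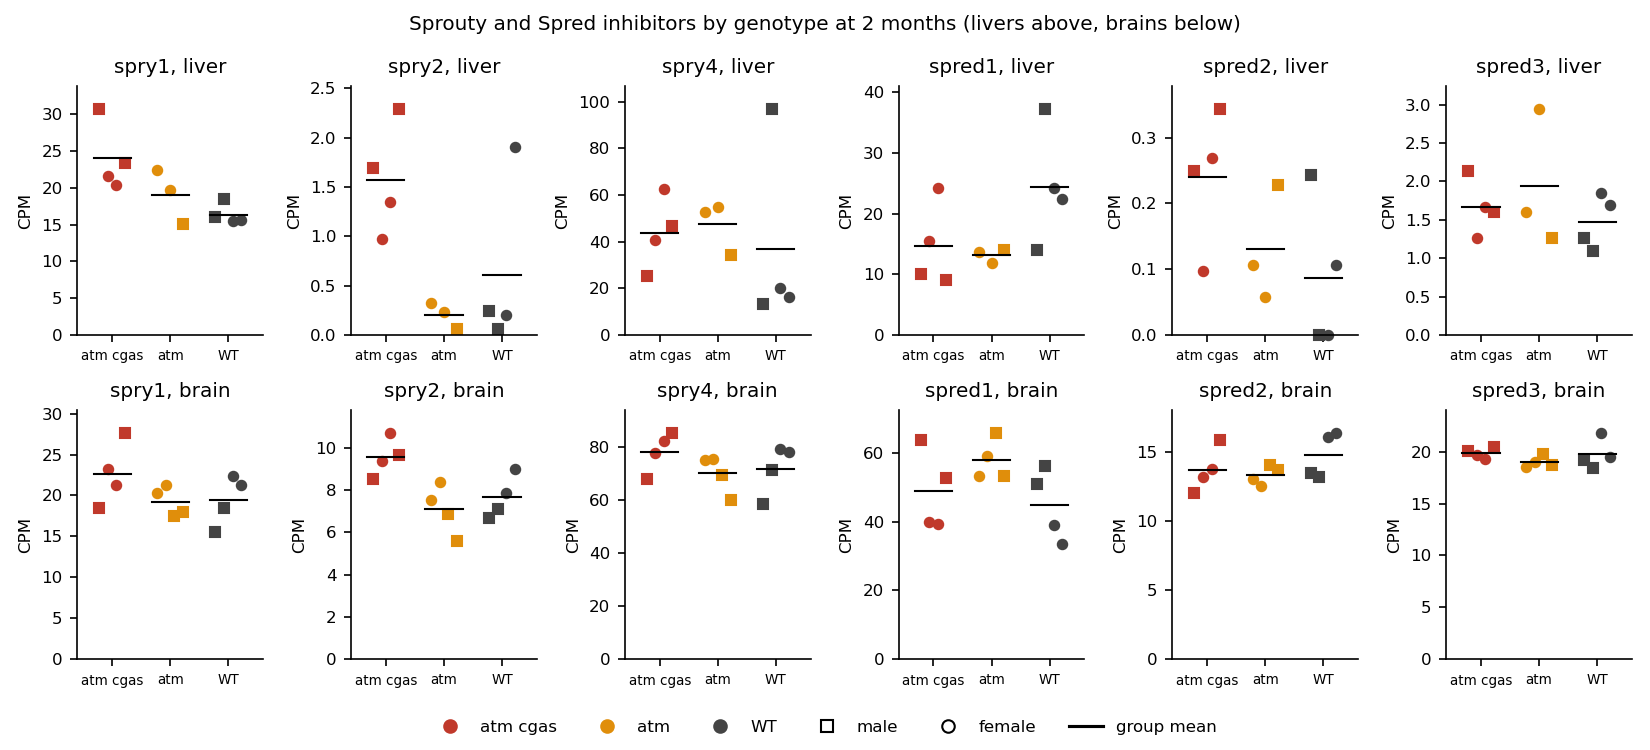
CPM of the 3 Sprouty and 3 Spred genes in each library of the 2-month double mutants, ATM mutants and WT fish, liver above and brain below. Liver spry2 is above 0.9 CPM in the 4 double mutants and in 1 WT fish, and brain spry2 lies between 5.58 and 10.7 CPM in all fish.

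Whether a mutation acted differently in the organs was tested as the liver effect minus the brain effect, and passed for 0 of 100 growth factor genes for either mutant group in edgeR. For double mutants 1.13% of all genes passed, 0.593% with a higher and 0.537% with a lower effect in liver, and 18 growth factor genes (18.0%, against 15.4% of all genes) had an unadjusted p under 0.05, with fzd9 (-1.11, adjusted p = 0.0597), smad2 (0.66, adjusted p = 0.0817) and irs2 (-1.73, adjusted p = 0.0863) the nearest. For ATM mutants 0.241% of all genes passed, 0.0556% with a higher and 0.185% with a lower effect in liver, and 13 growth factor genes (13.0%, the same share as of all genes) had an unadjusted p under 0.05, with smad2 (0.90, SE 0.19, adjusted p = 0.0523) and fzd8 (1.73, adjusted p = 0.0896) the nearest. DESeq2 called 4 genes in each (4.0%, against 5.21% of all genes for double mutants and 2.33% for ATM mutants). Without the liver of WT fish 1 edgeR called 5 genes in each, and without that of double mutant 4 it called 6 for double mutants. Among pathway genes, 3 of 203 passed for double mutants, which were poglut1, an enzyme that modifies Notch (1.12, adjusted p = 0.0303), braf (-0.61, adjusted p = 0.048) and dusp5 (2.47, adjusted p = 0.0485).

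In 3-month liver, 0 of 53 growth factor genes passed between Blm1 mutants and WT males in edgeR or DESeq2, 2 (3.77%) having an unadjusted p under 0.05, against 8.05% of all genes, and 0.0% of all genes passed. The ligand fgf2 was at 2.44, 2.80 and 2.40 CPM in Blm1 mutants and 1.21, 1.60, 1.28 and 1.85 CPM in WT fish, with no overlap (log2 fold change 0.78, SE 0.26, adjusted p = 0.503). For wnt11 the values were 9.56, 8.93 and 9.34 CPM in Blm1 mutants and 11.6, 11.6, 11.9 and 15.3 CPM in WT fish, again with no overlap (-0.44, adjusted p = 0.506). Such separation was seen for 4 of the 53 genes (7.55%, against 6.18% of all genes).

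The ligand wnt9a was at 7.31, 3.28 and 2.71 CPM in Blm1 mutants and 6.48, 7.40, 7.60 and 7.90 CPM in WT fish (-0.73, adjusted p = 0.616); without the first of these mutants it passed in edgeR (-1.30, adjusted p = 0.0162). Log2 fold changes of the liver hormones were -0.34 for igf1 and -0.49 for igf2, neither past the threshold, and those of pdgfc (0.49), smad3 (-0.23) and tgfbrap1 (0.29) were next by p.

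In 3-month brain, 0 of 65 growth factor genes passed between cGAS mutants and WT fish in edgeR, and 3 (4.62%) had an unadjusted p below 0.05, against 8.39% of all genes; 0.463% of all genes passed, and DESeq2 called smad1 alone (adjusted p = 0.037). In females 1, 2 and 3 and males 2 and 3 of the cGAS mutants, smad1, a carrier of BMP signals, was at 24.97, 21.0, 13.2, 25.8 and 31.6 CPM, against 12.8 and 10.1 CPM in the WT male and female (log2 fold change 1.06, SE 0.30, adjusted p = 0.298). In the same order vegfa was at 36.6, 32.0, 31.8, 38.6 and 49.2 CPM in cGAS mutants and 26.7 and 26.1 CPM in WT fish (0.52, adjusted p = 0.471), and fzd4 at 60.0, 34.7, 24.7, 39.2 and 81.4 CPM in cGAS mutants and 19.5 and 21.2 CPM in WT fish (1.23, adjusted p = 0.519). All cGAS mutants lay above both WT fish for these 3 genes, and 9 of the 65 genes (13.8%, against 13.2% of all genes) were separated in one direction or the other. The next differences by p were those of tgfbr3 (0.61), igfbp4 (-0.29) and fgfrl1 (0.72).

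Summed muscle markers moved with these values. They were at 101587, 76992, 42285, 176683 and 270332 CPM in the cGAS mutants, in the order above, and 24008 and 22836 CPM in the WT male and female, with none of the 7 marker genes at 0; cGAS mutant female 3 was the lowest mutant and male 3 the highest for the muscle sum as for smad1, vegfa and fzd4. In the 2-month brains, scaled apart, 8 muscle marker genes summed to 13.3 to 391 CPM, below every 3-month brain, WT fish included. The part of muscle markers in the result was not tested. Female 3 also stood apart for liver genes, with 29.4 CPM of igf1, 102 CPM of igf2, 15.5 CPM of igfals and 5.66 CPM of fgf1, beside a hepatocyte marker sum of 5856 CPM against 489 to 1642 CPM in the other 6 brains. The 6 fibroblast and meninges markers measured summed to 3298 to 10865 CPM in cGAS mutants and to 3010.2 and 3089 CPM in WT fish. Summed microglia markers were 258 to 539 CPM in cGAS mutants and 873 and 845 CPM in WT fish.

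**Figure D5:**
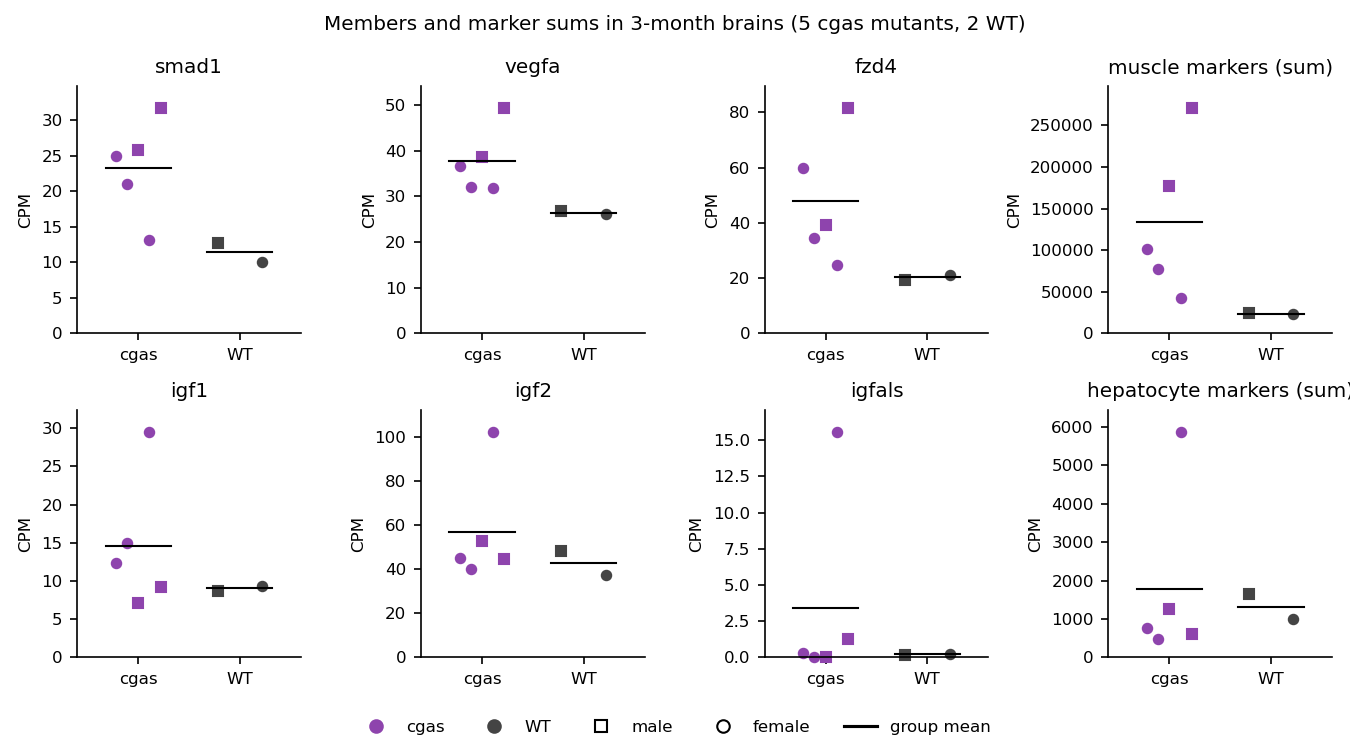
CPM of smad1, vegfa, fzd4, igf1, igf2 and igfals with the summed muscle and hepatocyte markers in each 3-month brain of cGAS mutants (n = 5) and WT fish (n = 2). The cGAS mutant with the highest muscle sum, 270332 CPM, has the highest smad1, vegfa and fzd4, and the one with the highest hepatocyte sum, 5856 CPM, has the highest igf1, igf2 and igfals.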

How the data were processed

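The authors deposited 3 tables of raw read counts per gene, 1 for each experiment, neither normalized nor pooled. Per the submitters' processing notes, reads passed FastQC 0.11.8, Trim Galore 0.6.4, cutadapt 3.4, STAR 2.7.6a and edgeR 3.32.1; per the labels' protocols, libraries were KAPA mRNA HyperPrep, read single-end. The genome build, annotation, counting program and strandedness are not given in the sources used here, so near-identical copies and overlapping or antisense genes are uncertain. Of 39 samples in the labels, 37 libraries were used: ATM mutant liver 3 was not analysed here and cGAS mutant male 1 held 0 counts. The 3-month tables list 16383 genes; 8 gene names turned into dates were restored. The labels' protocol for the cGAS brains speaks of livers, and the tissue field was followed.

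Genes were tested with edgeR 4.0.16 in R 4.3.3 (TMM scaling, filterByExpr, robust quasi-likelihood fits, Benjamini-Hochberg adjustment over all genes tested, threshold 0.05), with sex as covariate between genotypes and genotype as covariate between sexes; liver against brain was fitted on all 23 libraries. Every adjusted p in the text comes from this edgeR test unless DESeq2 1.42.0 is named. Standard errors (SE) came from the quasi-likelihood statistics. CPM of the 2-month libraries were TMM-scaled over both tissues, those of the 3-month libraries within each table, so levels are compared within a table and, since CPM are not per length, not between genes. Ratios of counts carry exact 95% intervals, which cover counting error only, with a floor of 3 counts over a group. Targets were compared on log2(CPM + 0.1) by exact permutation. The scripts were tested on simulated data.

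Genes in the text were named by rule: members past the threshold, up to 12 per direction with the largest change. Where fewer than 6 passed, the 6 with the smallest p were named as well. Of these 6, only the nearest are given for differences in effect between organs. None are given for the sex difference of the ATM effect in liver or of either effect in brain. The Sprouty and Spred genes, igf1, igf2 and irs2 and the genes with the highest level per role were named too. For liver against brain nearly all members are given, by role. The members, lists and pathway genes were chosen with earlier results of these data known. Liver and brain were read as 1 fish where their titles share a number. Over 11 such pairs their deviations from the group means correlated by -0.0256 to 0.401. The mean was 0.0874, against -0.00758 for other numbers. The main fits held no term for the fish, so p-values between organs treat both organs of a fish as independent. Alternatives were other scalings, DESeq2, no filter, left-out libraries, a replicate block, WT fish alone and depth. After the data were seen, 4 were added: library totals, leaving out both libraries labelled double mutant 4, mutant fish alone and leaving out the livers of both WT females. No value is given here for the last of these.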

Additional observations from a re-analysis of the deposited data

Results flagged for a closer look

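Among 18 growth factor genes, 13 of 116 groups of 4 to 10 libraries held 1 library far from the others; chance alone marks about 1 group in 20. Among double mutants, fish 1 stood out for fgf14 in brain (25.4 CPM, the others 20.5 to 20.9) and in liver (24.0 CPM, the others 0.0485 to 3.60) and for fzd9 in liver (21.2 CPM, the others 13.6 to 14.8). The libraries labelled double mutant 4 stood out for hes4 in brain (11.6 CPM, the others 5.77 to 6.31), igf2 in brain (18.0 CPM, the others 15.2 to 15.3) and irs2 in liver (57.1 CPM, the others 14.1 to 14.9). In the ATM mutant brains, fish 4 had the lowest smad2 (28.5 CPM, the others 29.6 to 29.7).

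Among WT livers, fish 2 was high for irs2 (110.0 CPM, the others 42.3 to 47.6), spry1 (18.4 CPM, the others 15.5 to 16.0) and spry4 (97.1 CPM, the others 13.1 to 20.2), and fish 4 for spry2 (1.91 CPM, the others 0.0639 to 0.243). Among the cGAS mutant brains, female 3 was high for igf2 (102 CPM, the others 40.1 to 53.0), beside the hepatocyte markers given above, and male 3 was low for spred2 (15.0 CPM, the others 20.5 to 22.3).

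The effect of the double mutation in liver differed between the sexes for LOC107389686, which the reference gene table names fzd5, by -4.58 on the log2 scale (females minus males, SE 0.60, edgeR adjusted p = 0.0432). Females had 14.8 and 9.91 CPM as double mutants, 30.8 and 28.6 CPM as ATM mutants and 176 and 192 CPM as WT. Males had 2.44 and 6.20 CPM as double mutants, 2.97 CPM as an ATM mutant and 2.43 and 3.13 CPM as WT. Mutant females of both groups thus lay below both WT females. Libraries of 2 fish per sex and genotype stand behind the difference tested between double mutants and WT fish.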

How the results depend on the processing

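Of 2193 alternative values of genes named for passing the threshold or for the smallest p, 2085 kept their direction and side of the threshold. Of the rest, 41 lost a call, 67 gained one and 0 reversed, and the causes were not tested. All 41 lost calls were among the 7 genes called for sex in liver and the 1 called within females. Most of the other named genes had not passed to begin with or had the largest differences between organs. The 2085 unchanged values therefore do not measure how firm the calls for sex and within females are. For liver against brain, these values cover only the genes with the largest change in each direction. With library totals, the sign turned for 23 of the 100 genes tested there, and 13 of these were called under both scalings. With DESeq2 the calls were 13 for sex in liver, 2 for sex in brain, 7 for double mutants against WT, 1 for double mutants against ATM mutants and 3 for ATM mutants against WT in liver, 4 for each difference between tissues, 1 for the sex difference of the double mutant effect in liver, 4 within females, 1 within males and 1 for cGAS mutants. Sex gave 1 call in WT brains alone and 0 in mutant livers alone. Median-of-ratios scaling gave 1 call for the tissue difference of the ATM effect; for that of the double mutant effect library totals gave 3 and leaving out both libraries labelled double mutant 4 gave 4. Within females, 0 genes passed with no filter on low counts and 0 with the replicate block; the block left 86 of 98 genes called between liver and brain, 39 higher and 47 lower, and 0 in the other comparisons it could be fitted to. Same-numbered fish of different genotypes did not deviate together in all pairs, with correlations of -0.433 to 0.293. ATM mutants and WT fish of the same number were of opposite sex, so these correlations cannot show whether the numbers share more than a label.

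With single libraries left out, the calls were 0 to 4 for double mutants against WT and 0 to 2 against ATM mutants in liver, 2 to 10 for sex in liver, 0 to 1 for sex in brain, 85 to 89 for tissue, 0 to 5 and 0 to 6 for the tissue differences of the ATM and double mutant effects, 0 to 13 for the sex difference of the double mutant effect in liver, 0 within females, 0 to 12 within males, 0 to 1 for Blm1 mutants and 0 for the rest. The highest of these came without WT liver 1 (5 calls), without double mutant liver 4 (6 and 10 calls) and without double mutant liver 1 (13 and 12 calls, with 1 male double mutant left, taken to vary like the other groups). Libraries of 11 to 39.28 M counts leave genes under about 1 CPM with few reads.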

Other observations

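The genes that carry a growth factor name only in the reference gene table held several liver hormones and receptors that the choice by name missed. Between liver and brain 61 of 64 passed in edgeR, 20 higher and 41 lower in liver, with a median log2 fold change of -1.52, against 86.5% of all genes and a median of -0.41. The IGF carrier igfbp2b was at 205, 321 and 415 CPM (lowest, median, highest) in liver and 0, 0.018 and 0.0452 CPM in brain, opposite in tissue to the igfbp2 of the member list. The bile acid hormone fgf19 was at 9.32, 32.4 and 115 CPM in liver, from 8805 counts, and had 1 count in all brains together.

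The ligand gdf2, known as BMP9 and made in the liver of mammals, had 4.17, 15.0 and 18.1 CPM in liver and 0, 0.0228 and 0.0883 CPM in brain, and bmp6, which controls hepcidin in mammals, had 26.8, 34.7 and 65.1 CPM in liver and 0.656, 1.04 and 1.34 CPM in brain. Both insulin receptor genes were higher in liver, insra with a median of 79.8 CPM in liver and 30.3 CPM in brain (log2 fold change 1.38) and insrb with 59.4 CPM in liver and 25.3 CPM in brain (1.22), while the IGF receptor gene igf1ra had 1.85 CPM in liver and 12.9 CPM in brain (-2.93). The binding protein gene igfbp1a spread widely within liver, with 8.91, 49.9 and 1063 CPM, against 2.44, 4.75 and 14.1 CPM in brain. Its highest value was that of the liver labelled double mutant 4, and the next, 309 CPM, that of WT male 2.

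In female livers alone, 4 of 39 such genes were lower in double mutants than in WT fish, against 3.56% of all genes: fzd5 (log2 fold change -3.95, adjusted p = 0.00738), tgfbr1b (-1.63, adjusted p = 0.016), bmp6 (-1.06, adjusted p = 0.0292) and notch1b (-1.05, adjusted p = 0.0375). ATM mutant females were below both WT females for these genes as well. They had 171 and 165 CPM against 373 and 399 CPM for tgfbr1b, and 34.5 and 34.7 CPM against 59.5 and 65.1 CPM for bmp6. For notch1b they had 42.9 and 42.2 CPM against 54.9 and 78.4 CPM, and the values of fzd5 are given above. WT males had 128 and 158 CPM for tgfbr1b, 39.6 and 31.5 CPM for bmp6 and 43.3 and 46.4 CPM for notch1b. On the TMM-scaled CPM, both WT females thus lay above every other liver for all 4 genes, WT males included. The order of livers under library totals is not given for these genes, and such scaling can change it. The same WT females had the lowest hepatocyte marker sums, and the part of these in the differences was not tested.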
